A study of Mus musculus with 9 samples.

Results

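The wild-type libraries of this study were taken from the small intestine of C57BL/6 mice of postnatal week 8, and they carry no modified Ripk3 allele. The members were chosen by genotype label only, which gave 3 of the 9 libraries of the series, and no other group enters the results. According to the design text, the intestines were sampled in acute graft-versus-host disease. The gut segment, the transplant, the donor cells and whether the 3 libraries came from 3 animals are not given in the sources used here, so each SD below describes the spread between 3 libraries, which may be technical. The profile is a description of levels within 1 diseased group and contains no healthy reference.

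In acute graft-versus-host disease, T cells of a donor attack tissues of the host, and the intestinal epithelium is among its main targets. The lining of the small intestine is a single layer of cells renewed from crypt stem cells. Most of its cells are enterocytes, which digest and absorb food, and the rest include mucus-secreting goblet cells, Paneth cells that secrete antimicrobial peptides, hormone-secreting enteroendocrine cells and tuft cells. Interferon-gamma, a cytokine of activated T and NK cells, acts on epithelial cells and raises antigen presentation. RIPK3, the kinase after which the study is named, drives necroptosis, a form of lytic cell death, by activating MLKL.

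Total counts were 32225648, 29487575 and 27810868 in WT libraries 1, 2 and 3. Levels are given as the deposited TPM, which divide counts by gene length and scale every library to the same total. Of 48708 genes, 13365 had a mean of at least 1 TPM, 1471 reached 100 TPM and 6 reached 10000 TPM. A count of 0 allows up to 3 counts, which for a gene of the median length of 3608 bases is 0.0612 to 0.0706 TPM. This limit covers counting error only.

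RNA of mitochondria and of absorptive enterocytes led the profile. The mitochondrially encoded subunits mt-Co2 and mt-Co1 of cytochrome c oxidase ranked first with 24592 ± 595 and 22231 ± 321 TPM (SD, n = 3). The highest nuclear gene was Reg3b, a secreted C-type lectin that binds bacteria, at 20388, 20429 and 20995 TPM. It lies at chr6:78370657-78373466 on the plus strand. Apoa1 and Apoa4, the apolipoproteins of intestinal lipoproteins, followed at 11391 ± 65.1 and 9279.7 ± 62.3 TPM, and Rbp2, which carries retinol inside enterocytes, stood at 7510.4 ± 18.8 TPM. Lypd8, a secreted protein that holds flagellated bacteria away from the epithelium, reached 7169 ± 37.7 TPM.

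The other leading genes had several roles. Fth1 (ferritin heavy chain, 5567 TPM), Krt8 (a keratin of simple epithelia, 5294 TPM), Actb (4961 TPM), Prap1 (4928 TPM), Fabp1 (liver-type fatty acid binding protein, 4679 TPM), B2m (the light chain of MHC class I, 4644 TPM) and Reg3g (4367 TPM) all ranked in the first 30. With merged-exon lengths Fth1 had 1525 TPM and rank 82. Also in the first 30 were Cd74, the invariant chain of MHC class II, at 3677, 3575 and 3569 TPM, and Plac8 and the galectins Lgals4 and Lgals2. Ubd, a ubiquitin-like protein induced by interferon-gamma, held rank 31 with 2902, 2917 and 2914 TPM. Reads of Sprr2a2 (4918 TPM) and Rps12-ps3 (3487 TPM) could not be assigned safely, since 96.5% and 100% of their 50-base words also occur in other genes. Over 50% was also shared in mt-Co2 (100%), mt-Co3 (99.9%), mt-Atp6 (99.5%), mt-Nd4 (62.2%), Rplp1 (60%) and mt-Co1 (51.1%). Among the 30 leading genes, 18 held the same rank in every library, and in 10 cases the range over the libraries overlapped that of the next gene. In 1 of these, mt-Atp6 and mt-Co3, the order was still the same in every library.

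**Figure D1:**
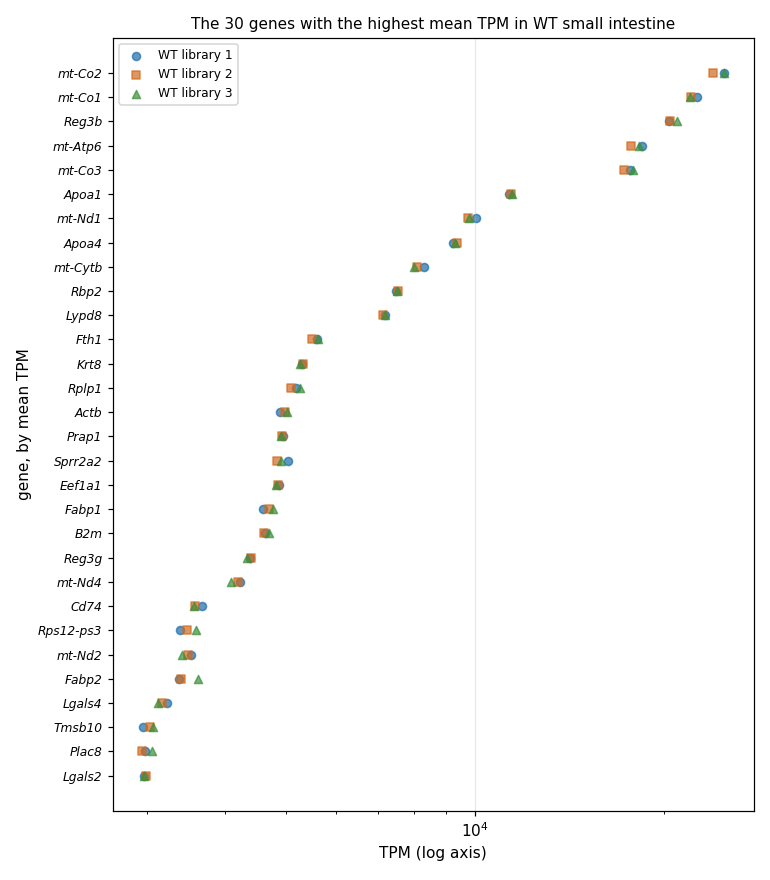
TPM on a log axis of the 30 genes with the highest mean, with 1 symbol for each WT library. The symbols of each gene lie close together, and mt-Co2, mt-Co1 and Reg3b stand highest.

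Expression was concentrated in few genes. The 10 highest held 14.9% of all TPM, the 100 highest held 37.4%, and 247 genes were needed to reach 50%. By counts, which do not correct for length, 717 genes were needed to reach 50%. Protein-coding genes took 99.0% of counts. Among long noncoding RNAs Neat1 was the highest at 1500.1 TPM, but its deposited length was 3004 bases against 20771 bases of merged exons in GENCODE M21, so its level depends on the transcript that was assumed.

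Epithelial markers outweighed those of all other cell types. The share of counts was 4.36% ± 0.0137 (SD, n = 3) for 35 enterocyte markers and 1.52% ± 0.00758 for 15 markers of all gut epithelium. Summed TPM of the 7 epithelial lists exceeded that of the 6 immune lists 11.7-fold ± 0.0834, and their summed counts did so 22.8-fold ± 0.39. These shares depend on how many genes each list holds, and in bulk RNA fewer cells of a type and less RNA per cell cannot be told apart. Of the 35 enterocyte markers, 34 had at least 1 TPM. The exception was Slc10a2, the bile acid transporter of the ileum, at 0.202 TPM. Among markers of all gut epithelium, Epcam, the adhesion molecule of epithelia, had 1791 TPM. The enterocyte marker Vil1 (villin) had 1238 TPM.

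Secretory cells were represented unequally. Goblet markers took 0.618% ± 0.00602 of counts, led by Tff3 (a mucus-stabilising trefoil peptide) at 2655, 2619 and 2693 TPM. Muc2, the gel-forming mucin, had 372, 372 and 367 TPM, so that Tff3 exceeded it 7.17-fold ± 0.149 per length. Counts gave the opposite order, with a log2 ratio of -1.01, since Muc2 is 7127 bases long and Tff3 493. Paneth cell genes took 0.0877% ± 0.000968 of counts, and 25 of 46 had at least 1 TPM. The alpha-defensin Defa24 had 667, 621 and 653 TPM, the Paneth lysozyme Lyz1 had 598, 558 and 580 TPM, and the matrix protease Mmp7, which activates defensins, had 345, 349 and 339 TPM. All 3 were present at similar levels in every library. Alpha-defensin genes share sequence, with 28.1% of the words of Defa24 found in other genes, so the split between them is uncertain.

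Rarer epithelial types took smaller shares. Enteroendocrine markers took 0.0168% ± 0.000442 of counts. Gip, the incretin hormone of K cells, was the highest of them at 103, 115 and 108 TPM, ahead of Sct (secretin, 54.3 TPM), Cck (cholecystokinin, 52.4 TPM) and Chgb (41.5 TPM), and Insl5 had 0 counts. Cck exceeded Gcg, the proglucagon gene, 18.8-fold ± 1.02, while Sct and Cck did not separate. Tuft cell markers took 0.00667% ± 0.000124, and 9 of 15 had under 1 TPM, among them Dclk1 (0.468 TPM) and Pou2f3, which had 6, 26 and 0 counts. Crypt stem cell markers took 0.0379% ± 0.000816. Lgr5, the receptor that marks cycling stem cells, had 0.696, 0.576 and 0.91 TPM from 97, 73 and 110 counts, whereas Olfm4, a secreted protein of the crypt base, had 96.3, 86.4 and 88.7 TPM. Olfm4 thus exceeded Lgr5 by 6.98 ± 0.33 on the log2 scale. All 30 cell cycle genes had at least 1 TPM, led by Tuba1b (749.7 TPM), which is also used outside division, and the replication clamp Pcna (147 TPM). Mki67 had 52.1 ± 1.95 TPM.

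**Figure D2:**
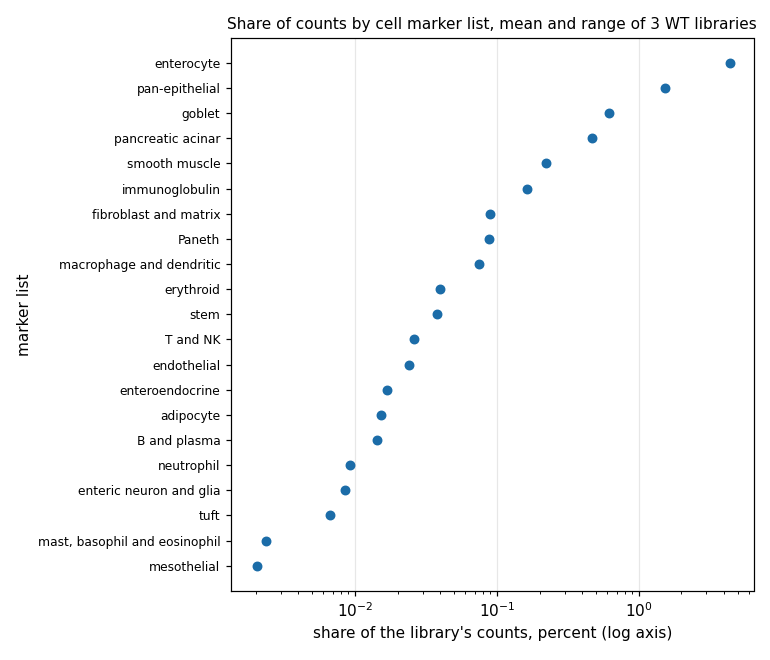
Share of each library's counts, in percent on a log axis, for every cell marker list at 0.001% or more, with the mean as a point and the range of 3 WT libraries as a line that is mostly hidden by the point. Enterocyte markers stand at 4.36%, and mast cell, basophil and eosinophil markers at 0.00238%.

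Immune RNA was mostly immunoglobulin. Immunoglobulin genes took 0.164% ± 0.0034 of counts. The kappa constant gene Igkc had 1633, 1575 and 1686 TPM and the IgA heavy chain Igha had 758, 718 and 742 TPM, while the IgM heavy chain Ighm had 2.81, 2.62 and 3.6 TPM. Igha exceeded the summed IgG constants 278-fold ± 33.6, and kappa exceeded the summed lambda constants 9.97-fold ± 1.2. Jchain, which joins IgA into dimers, had 122 TPM, and Pigr, the epithelial receptor that carries dimeric IgA into the lumen, had 1978 TPM, 2.68-fold ± 0.0967 above Igha. Of 13 other B and plasma cell genes, 6 had at least 1 TPM. The B cell receptor chains Cd79b and Cd79a had 4.33 and 2.14 TPM and the coactivator Pou2af1 3.19 TPM, whereas Ms4a1 (CD20) had 0.293 TPM and Fcer2a 0 counts.

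T and NK cell genes took 0.0262% ± 0.000436 of counts, and 27 of 32 had at least 1 TPM. Granzymes led them. Gzma had 248, 252 and 252 TPM and Gzmb had 75.4, 76.5 and 75.6 TPM, so Gzmb stood at 0.303 ± 0.00192 of Gzma in every library. Prf1 (perforin), which opens the path for granzymes, was lower at 3.62, 3.47 and 3.1 TPM. Ifng itself was measured at 6.16, 7.52 and 6.89 TPM. Cd8a exceeded Cd4 1.46-fold ± 0.208, and Cd8b1 and Cd8a did not separate. Cd3g, Cd3e and Cd3d, which assemble in 1 receptor complex, had 18.3, 9.61 and 6.18 TPM. The order of Cd3d and Cd3e turned when merged-exon lengths were used, with a log2 ratio of 0.41. Foxp3, the factor of regulatory T cells, had 0, 2 and 4 counts.

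Myeloid genes were led by macrophage products. The macrophage and dendritic cell list took 0.0754% ± 0.000556 of counts, with Lyz2 (macrophage lysozyme) at 434.5 ± 3.01 TPM and the complement genes C1qa, C1qb and C1qc at 163, 95.01 and 60.7 TPM. Lyz1 and Lyz2 share 16.1% and 15.4% of their words with other genes. Markers of conventional and plasmacytoid dendritic cells were low, with Xcr1 at 0.835 TPM, Flt3 at 0.302 TPM and Siglech at 0.126 TPM. Neutrophil genes took 0.00924% ± 0.000486, led by the calprotectin subunits S100a9 (92.8 ± 7.08 TPM) and S100a8 (56.5 ± 8.2 TPM). Elane, a granule protease made in neutrophil precursors, had 72, 1 and 112 counts and was the least even of them. Of the mast cell, basophil and eosinophil genes, 4 of 13 had at least 1 TPM. The mucosal mast cell protease Mcpt1 was the highest of them at 26.6 TPM, and Cpa3 had 0.96 TPM.

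Genes of the gut wall were present in all libraries. Smooth muscle took 0.222% ± 0.00349 of counts, with Tagln at 343 TPM and Acta2 and Actg2 at 315 and 261 TPM. Fibroblast and matrix genes took 0.0897% ± 0.000563, endothelial genes 0.0241% ± 0.0006 and neuronal and glial genes 0.00851% ± 0.000157. Their highest members were Sparc (73.9 TPM), Plvap (67.1 TPM) and Gal (28.7 TPM). Epcam exceeded Vim, an intermediate filament of mesenchymal and immune cells, 19.4-fold ± 0.74.

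Pancreatic enzyme RNA made up 0.470% ± 0.000891 of counts, more than all 6 immune lists together (0.292% ± 0.00451). Of 34 acinar genes, 32 had at least 1 TPM. The chymotrypsinogen gene Ctrb1 had 1699, 1690.5 and 1709.9 TPM, and Pnlip, the pancreatic lipase, had 318, 323 and 320 TPM. The median CV was 3.30% over the 28 genes of the list at 10 TPM or more, next to 3.72% over all genes at that level, and the highest among the 28 was 24.5%, in Amy2a1. The islet hormone genes Ins1, Ins2 and Iapp summed to 5 to 6 counts per library. Several trypsinogen and amylase genes share sequence, with 65.6% of the words of Try4, 47.6% of those of Try5 and 100% of those of Amy2a2 found in other genes, so the split among these is uncertain. Prss2, a trypsinogen at 410.1 TPM, shared 7.83%. What part pancreatic tissue had in these libraries was not tested. Adipocyte genes took 0.0153% ± 0.000694, led by Cidec at 80.5 TPM, with Adipoq at 1.41 TPM. The 3 highest held 84.8% of that list's TPM. All 29 liver genes had under 1 TPM.

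Genes of host defence at the epithelial surface took 2.69% ± 0.0113 of counts, and 27 of 28 had at least 1 TPM. The 3 highest, Reg3b, Lypd8 and Reg3g, held 85.1% of the list's TPM. Reg3g, a lectin that kills Gram-positive bacteria, had 4373, 4399.8 and 4329 TPM, so Reg3b exceeded it 4.66-, 4.64- and 4.85-fold per length. Counts differed less, at 316110, 287927 and 282451 for Reg3b and 125511, 114791 and 107814 for Reg3g. The deposited lengths were 1142 bases for Reg3b and 2114 bases for Reg3g. Dmbt1, a mucosal scavenger receptor protein, had 1444 TPM, and Reg1 and Reg2, lectins of the same locus, had 373 and 206 TPM. Duoxa2 and Duox2, which together form a hydrogen peroxide source, had 155 and 75.2 TPM. Among acute-phase genes Saa3 (80.2 TPM) exceeded Saa1 (8.07 TPM), Lcn2 had 35.6 TPM and Saa2 0.126 TPM. The group was thus dominated by lectins and Lypd8, and the Saa genes and Lcn2 were far lower.

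The promoters of the leading lectin pair are shown because both genes rank among the first 30 and differ several-fold in TPM. The sequences are the 250 bases before the RefSeq transcription start (GRCm38.p6), written 5′ to 3′ on the gene's strand, for Reg3b at chr6:78370635-78370884 on the plus strand and for Reg3g at chr6:78468875-78469124 on the minus strand. Capitals mark TATAAA at 45 to 16 bases before the start (sense strand) and the STAT motif TTCNNNGAA (both strands), and no 2 marked motifs overlap here.
Reg3b: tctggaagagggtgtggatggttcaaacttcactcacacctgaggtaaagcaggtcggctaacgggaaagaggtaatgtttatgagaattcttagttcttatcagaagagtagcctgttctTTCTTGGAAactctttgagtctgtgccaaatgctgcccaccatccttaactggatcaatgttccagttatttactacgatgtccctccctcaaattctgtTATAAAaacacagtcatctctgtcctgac
Reg3g: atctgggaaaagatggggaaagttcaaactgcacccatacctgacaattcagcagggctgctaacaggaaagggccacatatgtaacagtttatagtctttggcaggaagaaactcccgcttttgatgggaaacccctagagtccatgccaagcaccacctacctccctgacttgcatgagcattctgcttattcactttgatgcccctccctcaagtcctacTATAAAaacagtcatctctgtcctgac
In a global alignment 177 of 257 columns were identical (68.9%). TATAAA began 29 bases before the start in Reg3b and 27 bases before it in Reg3g. Windows ran from 250 bases before to 50 after the start. Of 19677 genes matched to the RefSeq table, 3.01% had TATAAA in that position, against 7 of the 24 defence genes with a window. This was not particular to them, with 8 of 18 Paneth genes, 9 of 27 cytokines and 9 of 28 pancreatic acinar genes. Other lists were lower, down to 0 of 67 nuclear respiratory chain genes. The STAT motif occurred in Reg3b at 129 bases before the start and in 9.22% of all 19677 genes. A match describes letters and does not show binding.

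Absorption of fat was carried by highly expressed genes. All 23 lipid absorption genes had at least 1 TPM, and 18 had at least 100 TPM. Fabp1 had 4594, 4686 and 4758 TPM and Fabp2, the intestinal form, had 3369.9, 3405 and 3619.6 TPM, 1.35-fold ± 0.0325 apart. Apoa1 exceeded Apoa4 1.23-fold ± 0.00497. Both orders turn when counts are compared without length, with log2 ratios of -0.37 and -0.26. Acsl5, which activates fatty acids, had 1095 TPM, Mttp, which loads lipid onto apolipoprotein B, had 888 TPM, and Apob had 325 TPM. The ileal bile acid binding protein Fabp6 was far lower at 4.61, 5.75 and 5.32 TPM, 668-fold ± 70.2 below Fabp2.

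All 18 brush border enzymes had at least 1 TPM. The aminopeptidase Anpep (1358 ± 27.4 TPM) and the intestinal alkaline phosphatase Alpi (1069 ± 1.79 TPM) led them. Among disaccharidases, sucrase-isomaltase (Sis) and maltase-glucoamylase (Mgam) had 475 and 481 TPM and did not separate, while lactase (Lct) had 61.4, 65.5 and 59.9 TPM, so that Sis exceeded it 7.64-fold ± 0.212. The meprin subunits differed most: Mep1b had 497, 471 and 474 TPM and Mep1a had 3.8, 3.45 and 3.52 TPM, a 134-fold ± 2.93 difference. The glucose transporter Slc5a1 of the brush border exceeded the facilitative transporter Slc2a2 15.3-fold ± 0.549.

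Genes typical of the upper small intestine were expressed. Gata4, a factor of duodenum and jejunum, had 88.4, 96.5 and 89.9 TPM, Pdx1, a factor of the duodenum, had 50.2, 45.7 and 44.6 TPM, and Onecut2 had 33.1 TPM. How far the pancreatic RNA in these libraries contributed to Pdx1 was not tested. Genes typical of the ileum were low. Besides Slc10a2 and Fabp6, Osr2 had 2.07 TPM, Cubn 0.222 TPM and Fgf15 0 counts. The epithelial factors Elf3 (584 TPM), Hnf4a (380.4 TPM) and Cdx2 (196 TPM) were among the 10 highest of the 38 transcription factors listed, together with Irf1, Atf4, Xbp1, Cdx1, Irf8 and Irf7.

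Interferon-gamma targets were all expressed: all 30 had at least 1 TPM, 13 had at least 100 TPM, and together they took 0.614% ± 0.00289 of counts. After Ubd came Igtp, an immunity-related GTPase, at 779, 761 and 764 TPM, the transcription factor Irf1 at 352, 364 and 349 TPM, Ido1, which degrades tryptophan, at 329, 329 and 338 TPM, and the guanylate-binding protein Gbp2 at 225, 220.2 and 217 TPM. Type I interferon-stimulated genes were also all at 1 TPM or more, led by Isg15 (333 TPM), Bst2 (232 TPM) and Oasl1 (219.7 TPM), and their summed TPM was lower by 3.21-fold ± 0.0417. The lists hold different genes of 30 each, so this ratio does not compare the 2 signals. Ifnb1 had 0 counts.

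Promoters of Igtp and Gbp2 are shown because both hold the letters of a motif bound by interferon regulatory factors. That of Igtp also holds the letters of a motif bound by STAT proteins. Both promoters were picked after the matches were seen. They are the 250 bases before the RefSeq start (GRCm38.p6), at chr11:58199306-58199555 and chr3:142620413-142620662, both on the plus strand. Capitals mark the STAT motif TTCNNNGAA and the interferon response motif (GAAA, any 2 bases, GAAA), searched on both strands.
Igtp: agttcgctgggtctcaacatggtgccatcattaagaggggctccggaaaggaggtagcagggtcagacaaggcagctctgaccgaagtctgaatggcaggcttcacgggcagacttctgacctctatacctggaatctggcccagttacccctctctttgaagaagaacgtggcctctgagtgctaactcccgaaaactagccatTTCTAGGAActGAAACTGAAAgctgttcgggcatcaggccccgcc
Gbp2: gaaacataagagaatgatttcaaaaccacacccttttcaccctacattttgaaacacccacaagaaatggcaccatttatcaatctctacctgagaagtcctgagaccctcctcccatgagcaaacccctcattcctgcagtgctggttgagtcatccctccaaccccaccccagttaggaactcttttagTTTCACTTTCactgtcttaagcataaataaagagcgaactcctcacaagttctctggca
Igtp held both motifs side by side at 45 and 34 bases before the start, and Gbp2 held the interferon response motif 59 bases before it. RefSeq windows from 250 bases before to 50 after the start were found for 17 of the 30 interferon-gamma targets. The interferon response motif was in 11 of these 17 (64.7%) and in 3.97% of all 19677 genes, and the STAT motif was in 8 of the 17 (47.1%) and in 9.22% of all. Of 22 type I interferon-stimulated genes with a window, 13 (59.1%) had the interferon response motif and 5 (22.7%) the STAT motif. The former motif was thus not particular to the interferon-gamma targets. The window of Ubd, the highest of those targets, held neither, and Cxcl10 held 1 interferon response motif and no STAT motif.

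Antigen presentation genes were high. All 23 MHC class I genes had at least 1 TPM and together took 1.37% ± 0.0072 of counts. B2m had 4631, 4601 and 4701 TPM, the heavy chains H2-K1 and H2-D1 had 2657 and 1992 TPM, and Tap1, a subunit of the peptide pump, had 167 TPM. MHC class II genes took 0.459% ± 0.00663, with H2-Eb1 (1049.7 TPM), H2-Ab1 (1048 TPM) and H2-Aa (957 TPM) close to each other and Cd74 3.44-fold ± 0.0282 above H2-Ab1. H2-DMb1 and H2-DMa, which load peptide, had 216 and 149 TPM. H2-Oa (0.702 TPM), H2-Ob (0.185 TPM) and H2-Eb2 (0.593 TPM) were under 1 TPM. H2-Oa and H2-Ob encode an inhibitor of the DM protein.

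The immunoproteasome exchanges 3 catalytic subunits for inducible ones, and the 3 exchanges were not equal. Psmb10 exceeded its constitutive counterpart Psmb7 4.45-fold ± 0.0659, with 562 and 126 TPM. Psmb9 stayed below Psmb6 per length, at 154 and 214 TPM, and above it in counts (log2 ratio 0.49). Psmb8 had 340, 350 and 335 TPM and Psmb5 had 296, 289 and 299 TPM. The order of this last pair turned with merged-exon lengths (log2 ratio -0.05), and 54.1% of the words of Psmb5 occur in other genes. For the activator subunits, which form 1 ring, Psme2 had 729.9, 724 and 724 TPM and Psme1 379, 376 and 375 TPM, although 28.3% of the words of Psme2 are shared.

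**Figure D3:**
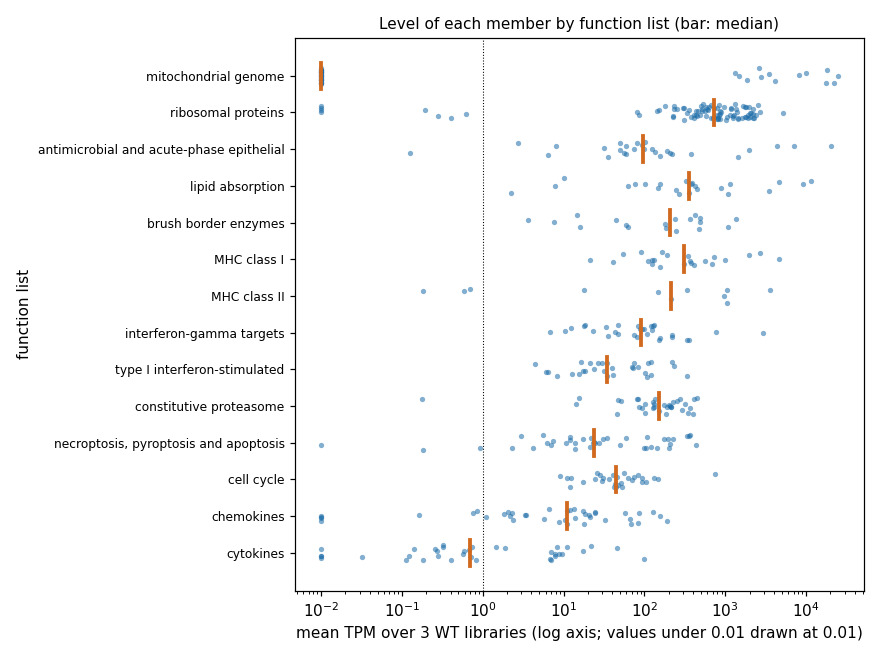
Mean TPM over 3 WT libraries on a log axis for every member of 14 function lists, with the median of each list as a bar and 1 TPM as a dotted line. The 13 mitochondrial protein genes stand above 1000 TPM, while the median of that list is at 0 because its 24 tRNA and rRNA genes had 0 counts, and most cytokines lie below 1 TPM.

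Cell death genes were broadly expressed: 37 of 40 had at least 1 TPM, and the list took 0.408% ± 0.00171 of counts. Ripk3 had 140.5, 144 and 139 TPM, from 3746, 3497 and 3225 counts. Its substrate Mlkl, the executioner of necroptosis, had 62.6, 58.8 and 58.5 TPM, which is 0.424 ± 0.0195 of Ripk3. Ripk1, the kinase upstream of it, had 23.3, 24.3 and 23.04 TPM, and Zbp1, a nucleic acid sensor that can also engage RIPK3, had 109, 111 and 104 TPM. Casp8, the protease that restrains this pathway, had 123, 122 and 112 TPM, so that it was 0.843 ± 0.0374 of Ripk3. Cflar, its regulator, was 0.147 ± 0.0144 of Casp8. Ripk3 was therefore the most abundant of these genes per length, although Casp8 had more counts (log2 ratio 0.31).

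Other death pathways were also represented. The pore-forming Gsdmd had 428, 429 and 431 TPM and was the highest of the list, 145-fold ± 20.6 above Gsdme (listed under an older name). The caspase Casp6 had 174 TPM. The inflammatory caspase Casp1 had 198 TPM against 21.1 TPM for Casp4 and 6.15 TPM for Casp12. Among mitochondrial regulators, the pore proteins Bak1 and Bax had 364 and 105 TPM, the guardian Mcl1 206 TPM, Bcl2l1 34.2 TPM, Bcl2 2.29 TPM and the BH3 genes Bid and Bbc3 12.1 and 7.05 TPM. Cycs (226 TPM), Apaf1 (30.6 TPM) and Casp9 (10.6 TPM) form the apoptosome. The death receptors Tnfrsf1a, Fas and Tnfrsf10b had 203, 49.9 and 7.41 TPM, and their adaptors Tradd, Traf2 and Fadd had 99.0, 13.7 and 11.9 TPM. Of the ubiquitin regulators, Birc3 had 27.4 TPM, Tnfaip3 24.6, Birc2 23.2, Xiap 21.6 and Cyld 13.9. Gasdermins of the C family, Gsdmc4, Gsdmc2 and Gsdmc3, had 5.62, 4.21 and 0.916 TPM, Gsdma had 0.184 TPM and Gsdmc had 0 counts.

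Chemokines and cytokines were low beside these. Among chemokines 33 of 40 had at least 1 TPM. Ccl25, which draws T cells to the small intestine, was the highest at 189 TPM, followed by the CXCR3 ligands Cxcl9 (156, 159 and 157 TPM) and Cxcl10 (123, 131 and 128 TPM), and Cxcl9 exceeded Cxcl10 in each library. Cxcl11, the third ligand, had 10.4 TPM. In C57BL/6 mice its gene carries a frameshift, so the transcript yields no functional protein. Of 36 cytokines, 15 had at least 1 TPM. The alarmins Il18 (99.0 TPM) and Il33 (46.3 TPM) led, then Il1b (22.1 TPM) and Tnf (17.6 TPM). Il22, which maintains stem cells and antimicrobial lectins, had 8, 4 and 2 counts (0.531, 0.292 and 0.153 TPM), although the receptor subunit Il10rb exceeded Il22ra1 1.73-fold ± 0.134. Il17a (0.113 TPM), Il6 (0.683 TPM) and Il10 (0.277 TPM) were under 1 TPM, and Il13, Il17f and Il12b had 0 counts.

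Messenger RNA of the mitochondrial genome and of ribosomal proteins took large shares. The 13 protein genes of the mitochondrial genome held 11.8% ± 0.146 of TPM and 4.66% ± 0.0718 of counts, and the 24 mitochondrial tRNA and rRNA genes had 0 counts. For subunits that assemble in the same complex, the median mitochondrially encoded gene exceeded the median nuclear one 13.2-fold ± 0.32 in complex I, 24.9-fold ± 0.612 in complex IV and 22.9-fold ± 0.732 in ATP synthase. The ATP synthase set holds only 2 mitochondrial genes, mt-Atp6 (18140 TPM) and mt-Atp8 (2777 TPM), so its median is their midpoint. All words of mt-Co2 occur in nuclear copies, which could share its reads. Ribosomal protein genes took 4.97% ± 0.09 of counts, and 83 of 91 had at least 1 TPM.

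Energy metabolism used one isoform of most enzyme pairs. Ldha had 1327, 1311 and 1308 TPM and Ldhb 6.0, 6.45 and 7.19 TPM, a 202-fold ± 19.6 difference. Pkm exceeded Pklr 6.42-fold ± 0.144 and Hk2 exceeded Hk1 4.4-fold ± 0.212. Among antioxidant enzymes Gpx2, the gut form of glutathione peroxidase, exceeded Gpx1 1.62-fold ± 0.0208, and the ferritin chain Fth1 exceeded Ftl1 2.38-fold ± 0.0405. Both of these orders turned with merged-exon lengths, to log2 ratios of -0.48 and -0.75. The deposited length of Fth1 was 866 bases against 3469 bases of merged exons, and 50.9% of the words of Ftl1 are shared.

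Of 103 ratios between related genes, 102 could be computed in every library, and 97 lay to one side, meaning the same sign in all 3 libraries and a mean log2 ratio at least 1 SD from 0. The numerator was higher in 57 and the denominator in 40. A 2-fold difference was passed by 52 and a 10-fold difference by 18, and 29 were within 1.5-fold. The 5 that did not separate were Sis/Mgam, Cd8b1/Cd8a, Eomes/Tbx21, Mcpt4/Cpa3 and Sct/Cck. The median SD of the log2 ratio was 0.05. With 3 libraries an exact two-sided sign test cannot give less than 0.25, so no p is given for any ratio.

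**Figure D4:**
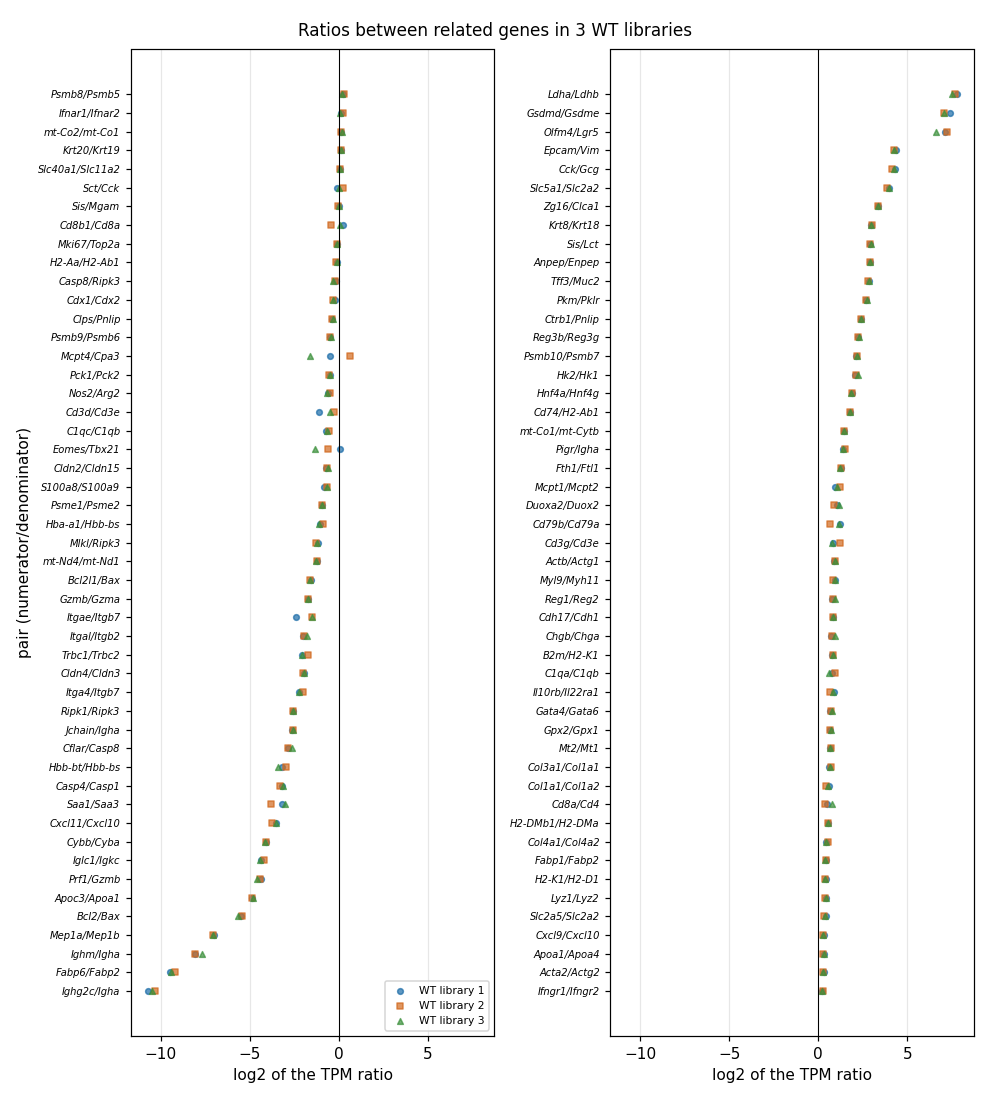
Log2 of the TPM ratio for 98 of the 102 pairs of related genes, ordered by mean, with 1 symbol for each WT library and a line at 0 where both genes are equal. Ighg2c/Igha is lowest at -10.53 and Ldha/Ldhb highest at 7.65, and the symbols of Mcpt4/Cpa3 and Eomes/Tbx21 lie on both sides of 0.

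The 3 libraries resembled each other closely without being identical. For each pair of libraries, the variance of counts was 3.57 to 3.76 times the counting variance on average, and 27.6% to 28.4% of genes passed the limit that counting error alone exceeds in 5%. Between libraries 1 and 2 the variance was 3.48 times the counting variance at 20 to 100 summed counts and 3.38 times at 1000 to 10000. From 10000 summed counts it was 5.88 times. No pair agreed within sampling noise, so all 3 were counted. Whether they came from separate animals was not tested, since technical spread can also exceed counting error. The median CV of TPM was 5.49% over genes at 1 TPM or more and 1.56% over genes at 1000 TPM or more, and 9776 of the 13365 genes (73.1%) had a CV of up to 10%. Immunoglobulin variable segments, which share reads among themselves, had a median CV of 13.3% over 73 segments at 10 to 100 TPM, next to a median counting error of 10.7%. All genes at that level had 4.24% and 2.81%. The highest CV among genes at 10 TPM or more belonged to Rps12, followed by Gm4149, Gm10146, Hist2h2aa1, Gm28048, Rpl37rt, Igkv6-32, B3gnt2, Gm5601 and Igkv4-55.

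**Figure D5:**
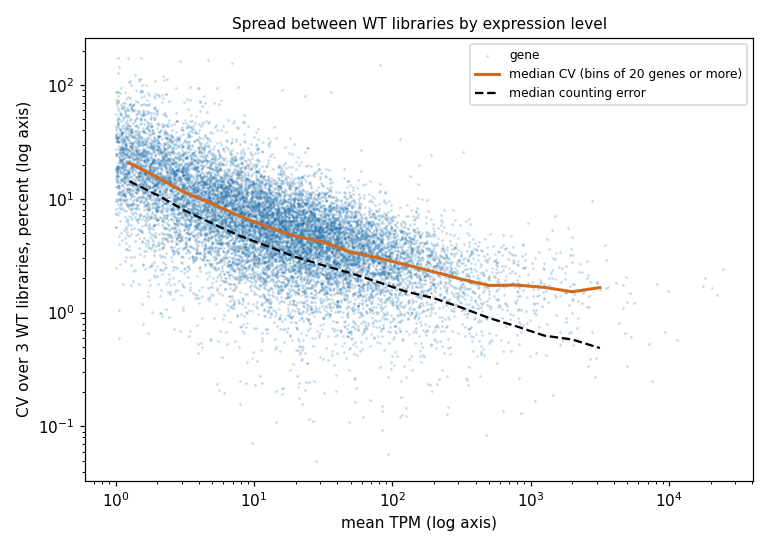
CV of TPM over 3 WT libraries, in percent, against mean TPM for each gene at 1 TPM or more, both on log axes, with the median CV and the median counting error by bin. The median CV lies above the counting error at every level, at 10.9% against 7.53% from 1 to 10 TPM.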

How the data were processed

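RNA sequencing of total RNA from 3 WT libraries was analysed from 1 deposited table. The table holds raw counts per gene, TPM and RPKM, per the file headers, and the authors computed all 3. Per the submitters' processing notes, Trimmomatic, STAR, HTSeq and DESeq2 were used with build mm10, and their settings are not given in the sources used here. Per the labels' protocols, RNA was extracted with TRIzol, and both a ribosomal RNA depletion kit and a poly(A)-based stranded kit are named. The deposited RPKM gave the gene lengths behind TPM, whole within 0.01 bases in 100% of values, and 74.3% of genes at 1 TPM or more were within 5% of the merged-exon length in GENCODE M21. Counts in genes were 87.0% to 87.5% of the reads behind RPKM. The 1 blank line was left out.

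From these values means, SDs, shares, ratios and CVs were computed with Python 3.11.15, numpy 2.4.6, scipy 1.17.1 and, for TMM factors, edgeR 4.0.16. No test between groups was made. The steps were tested on simulated data. The text names the 30 genes with the highest TPM, the 6 highest members and those under 1 TPM of each list, both genes of a ratio, the 10 highest transcription factors, the 10 highest CVs among genes at 10 TPM or more and cell death genes. Not every such gene is spelled out, and some are not reported here. Members, 49 lists and 103 pairs were chosen with earlier results of these data known. Sharing is the percent of 50-base words of a gene's transcripts found in another gene. Promoters are from RefSeq (GRCm38.p6), and 19677 genes matched by symbol. Alignment used Biopython 1.88. Alternatives were other averages, pseudocounts, filters, lengths, scalings and leaving out each library.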

Additional observations from a re-analysis of the deposited data

How the results depend on the processing

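No paired analysis was possible because all results describe 1 group and come from no test. Under the alternatives run, the 13365 genes at 1 TPM or more, the 247 genes holding 50% of TPM, the leading 50 genes, the 97 pairs to one side and the 9776 genes with a CV of up to 10% stayed within 1.5 times their count. Leaving out 1 library gave 13363 to 13376, 244 to 248, 49 to 50, 98 to 99 and 10115 to 10325, and shares of 6.65% to 6.66% (epithelial), 0.29% to 0.294% (immune), 0.344% to 0.348% (wall and vessel), 0.469% to 0.470% (pancreas), 4.63% to 4.70% (mitochondrial) and 4.92% to 5.003% (ribosomal).

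By TPM in place of counts, the shares in that order were 8.30%, 0.711%, 0.255%, 0.793%, 11.8% and 8.64%. Without mitochondrial genes in the denominator the first 4 were 6.98%, 0.306%, 0.363% and 0.493%, and the ribosomal share 5.21%. Without pancreas, islet and adipocyte genes the epithelial share was 6.68%.

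Ratios of counts, which do not correct for length, turned 17 pairs, on the log2 scale Fabp1/Fabp2 (-0.37), Apoa1/Apoa4 (-0.26), Slc2a5/Slc2a2 (-0.37), Tff3/Muc2 (-1.01), H2-Aa/H2-Ab1 (0.063), B2m/H2-K1 (-0.79), Psmb9/Psmb6 (0.49), Casp8/Ripk3 (0.31), Duoxa2/Duox2 (-0.97), Nos2/Arg2 (1.03), Myl9/Myh11 (-1.62), Col1a1/Col1a2 (-0.34), Mt2/Mt1 (-0.40), Mki67/Top2a (0.056), Itga4/Itgb7 (0.19), C1qc/C1qb (0.18) and mt-Co2/mt-Co1 (-1.03). Merged-exon lengths, an alternative chosen after seeing the data, turned 8, Cd3d/Cd3e (0.41), Psmb8/Psmb5 (-0.047), Acta2/Actg2 (-0.028), Pck1/Pck2 (0.67), Gpx2/Gpx1 (-0.48), Fth1/Ftl1 (-0.75), Slc40a1/Slc11a2 (-0.36) and Clps/Pnlip (0.033), and kept 46 of the leading 50 genes, without Fth1, Myl6, Rps26 and Rpl8. Both act only through gene length. Foxp3/Cd4 gave no value, since Foxp3 had 0 counts in 1 library, and neither the pancreatic nor the mitochondrial share could be recomputed without its own genes. Depth limits genes near the floor, such as Foxp3 and Il22.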

Other observations

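These values were picked after the data were seen. H2-Ea-ps, the MHC class II alpha gene that C57BL/6 mice carry as a non-functional allele, had 13.7% ± 0.662 of the TPM of H2-Eb1. It had 1281, 1241 and 1188 counts, and whether these came from the C57BL/6 allele was not tested. Rps12 had 1435, 97 and 25 counts, while its intronless copy Rps12-ps3, with all of its words shared, had 22743, 21186 and 20915, and their summed TPM had a CV of 1.86%. The Y-linked genes Eif2s3y and Ddx3y had 36.6 and 20.9 TPM, and Xist had 1.16 TPM. Muc13, a membrane mucin that no list holds, had 2425 TPM.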
